A study of Mus musculus with 10 samples.

Results

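Amino acid and peptide transporters of the solute carrier families Slc1a, Slc3a, Slc7a, Slc15a, Slc36a, Slc38a and Slc43a were described in SmoM2-expressing mouse epidermal cells. The members were every row of the deposited table whose gene name begins with 1 of these 7 family names followed directly by a digit, which gave 50 of 49671 rows. Of these, 47 are transporter genes. The other rows, Slc7a6os, Slc36a1os and Slc36a3os, are annotated on the strand opposite to a transporter gene and are kept apart below.

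RNA was sequenced in bulk from YFP-positive cells sorted from mouse epidermis, in a study of Survivin (encoded by Birc5) in basal cell carcinoma formation. Every group carried Rosa-SmoM2, a constitutively active Smoothened that drives Hedgehog signalling, so no library comes from cells without the oncogene. There were 5 groups of 2 libraries, and the weeks in the titles are followed by TAM, read here as tamoxifen, so they are treatment times; the mice's age is not stated. Krt14-CREER/Rosa-SmoM2 at 6 weeks (Krt14 6w) was the control for the same genotype with Survivin LOF, loss of function, at 6 weeks (LOF). Krt14-CREER/Rosa-SmoM2 at 8 weeks (Krt14 8w) and Inv-CREER/Rosa-SmoM2 at 8 weeks (Inv) differ in the promoter that drives the recombinase: Krt14 is active in basal keratinocytes and Involucrin (Inv) in differentiating ones. Inv-CREER/Rosa-SmoM2/Krt14rtTA/Survivin-GOF at 8 weeks (GOF, gain of function) adds Survivin and Krt14rtTA together, and since the labels give Krt14rtTA to no other group, the effects of these 2 alleles cannot be told apart. Both Inv libraries are named as pools in the sample descriptions. The labels do not say that the 2 libraries of a group come from separate animals, so the p-values measure only the spread between libraries, which may be technical.

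Cells take up amino acids through carriers with overlapping substrates. Exchangers swap 1 amino acid for another, sodium-coupled and proton-coupled carriers concentrate their substrates, and the light chains of the Slc7a family reach the membrane bound to a heavy chain, Slc3a2 (CD98) or Slc3a1. In epidermis these carriers supply growing keratinocytes, import cystine for glutathione synthesis, and on lysosomes report amino acid supply to the kinase mTORC1.

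The values behind each library correspond to 7693167 to 8870758 reads, and 3 reads, used as a detection floor, are worth 6.76 to 7.80 normalized counts. The floor covers counting error only. All 8 keratinocyte markers were above the floor in every library, and Krt14 lay between 47388 and 84983 normalized counts. The 8 summed to 293724 to 321536 in Krt14 6w, 250854 to 290876 in LOF, 282903 to 293356 in Krt14 8w, 200783 to 208729 in Inv and 175541 to 253410 in GOF, and those that changed are given beside each comparison. Birc5 fell in LOF, from 961 and 1103 to 382 and 429 (log2 change -1.34, adjusted p = 0.00429), and rose from 237 and 265 in Inv to 7277 and 16384 in GOF (log2 change 5.44, adjusted p = 2.17e-06). The LOF and GOF libraries stood apart from all others in Xist, the X-inactivation RNA, at 30024 and 59594 in LOF and 7589 and 56185 in GOF, against 51 to 194 in the other 6 libraries. Ddx3y, a Y-linked gene, was at 1336 and 956 in LOF and 3328 and 970 in GOF, against 2289 to 2909 elsewhere, so LOF and GOF results are also given with Xist as a covariate. The covariate was used as log2 Xist, which nearly coincides with the groups, and, chosen after the data were seen, as linear Xist. As group means are fitted too, the Xist slope rests only on differences between the 2 libraries of a group. These differences were widest in GOF. A call kept or lost with either covariate therefore does not show whether a change is independent of Xist.

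Transcripts of other cell types moved with the groups as well, and their part in the results below was not tested. In bulk RNA, fewer cells of a type and less RNA per cell cannot be told apart. Of 8 melanocyte markers, 7 rose in LOF, where their sum was 3016 to 3175 normalized counts against 901 to 942 in Krt14 6w, and the sum was 1374 to 1538 in Krt14 8w, 2407 to 2505 in Inv and 1880 to 2075 in GOF. Of 7 sebaceous markers, 5 rose in LOF (sum 23446 to 38407 against 9538 to 10560), 6 were lower in Krt14 8w (27291 to 29884) than in Inv (145485 to 150924), and 7 were lower in GOF (40418 to 57269) than in Inv. The neutrophil list summed to 1486 to 4659 in the Krt14 libraries of both times and to 33 to 136 in LOF, Inv and GOF, but Ly6g, Csf3r and Retnlg were listed at 0 in at least 9 of 10 libraries. The myeloid list summed to 217 to 424 in the Krt14 libraries and 545 to 1062 in the others, with Adgre1 at 0 in 9 of 10 libraries. The fibroblast list summed to 1300 to 2673 in the Krt14 libraries and 14803 to 37656 in the others, nearly all of it from Dcn. The endothelial list reached 1197 in GOF replicate 2 against at most 301 elsewhere, and the T cell list stayed between 32 and 172.

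Of the 47 transporter genes, 34 reached 10 normalized counts in 2 libraries or more and were tested, and 28 were above the floor in all 10 libraries. By normalized count per kilobase of exon, averaged over the libraries, Slc38a2 stood first at 1813 (range over libraries 1283 to 2299), followed by Slc7a5 at 1126 (652.1 to 2209), Slc3a2 at 793.2 (600.2 to 1269), Slc7a1 at 394.7 (213.2 to 667.3) and Slc7a2 at 370.2 (81.77 to 627.9). The ranges of neighbours in this order overlap. SNAT carriers (Slc38a) made up 41.0% and 43.7% of the summed transporter level per kilobase in Krt14 6w and 27.7% and 29.2% in Inv. Light chains took 25.9% and 31.4% in GOF and 17.1% to 21.7% in the other libraries. In Krt14 8w replicate 2, Slc7a1 stood at 667.3 per kilobase and Slc7a5 at 656.1.

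**Figure D1:**
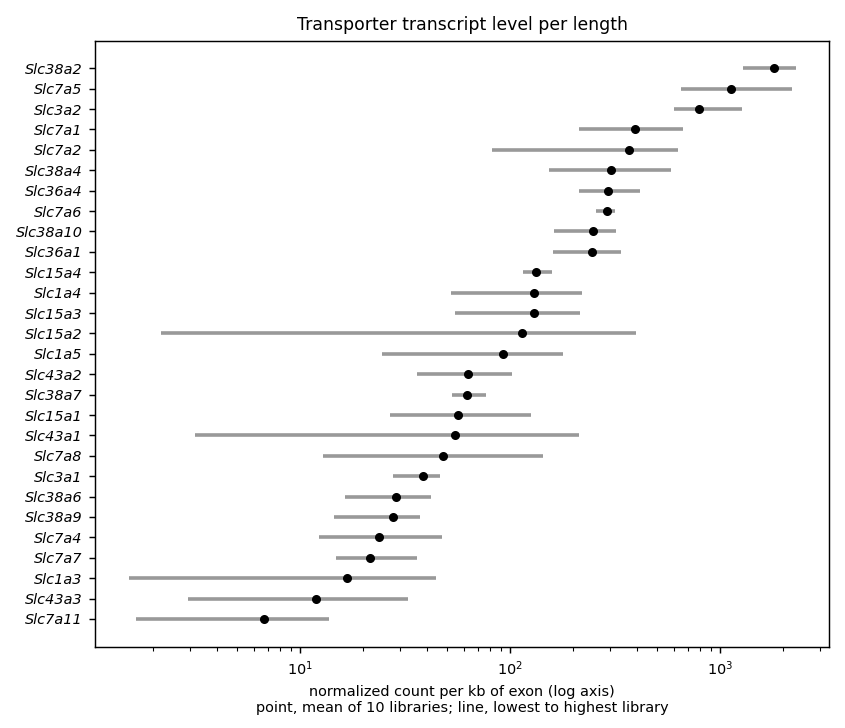
Level of the 28 transporters with a mean of at least 50, in normalized counts per kilobase of exon on a log axis, as the mean of 10 libraries (point) and the lowest to highest library (line). Slc38a2 is highest on average at 1813, and Slc15a2 spreads most among these, from 2.174 to 399.1.

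No tested member passed the filter through a single group. In the text below, each pair of values is replicate 1 then replicate 2 in normalized counts (n = 2 libraries in every group), each change is a difference of log2 means given with the model's standard error (SE), and adjusted p is from limma with Benjamini-Hochberg adjustment over all 21995 genes tested. A member was called changed at an adjusted p under 0.05. A fold printed beside a log2 change is the ratio of the group means of the values, so they can differ. Counts at 2-fold or more use the log2 change. Members with a mean of at least 50 that were called in any of the 5 comparisons, 20 genes, are given in every library.

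The peptide carriers Slc15a take up di- and tripeptides together with protons. Slc15a2 (ENSMUSG00000022899, chromosome 16, 36750177 to 36784962, minus strand) encodes PEPT2, the high-affinity peptide carrier best known from kidney and brain. It stood at 41 and 16 in Krt14 6w, 2666 and 2938 in LOF, 51 and 21 in Krt14 8w, 1152 and 1238 in Inv, and 183 and 68 in GOF. The Krt14 libraries of both times were near the floor, the LOF and Inv libraries were high, the GOF libraries lay between, and no 2 groups overlapped except Krt14 6w with Krt14 8w. The difference from Krt14 6w to LOF was 98.3-fold (log2 6.71, SE 0.52, adjusted p = 1.1e-05), the largest of any member called. Inv was 33.2-fold above Krt14 8w (log2 change of Krt14 8w against Inv -5.14, SE 0.52, adjusted p = 6.55e-05). GOF was 9.52-fold below Inv (log2 change -3.41, SE 0.52, adjusted p = 0.00195). It exceeded Krt14 8w by 3.49-fold (log2 1.74, SE 0.52, adjusted p = 0.029). The rise in LOF and the fall in GOF kept their calls when each library was left out in turn (log2 6.06 to 7.36 and -4.11 to -2.70). GOF against Krt14 8w did not, reaching adjusted p = 0.234 without Krt14 8w replicate 2 and 0.157 without GOF replicate 1. With a linear Xist covariate the LOF change was 7.61 and the GOF change against Inv -2.77 (adjusted p = 0.0136). With log2 Xist the LOF change was 10.35 (adjusted p = 0.0116), that of GOF against Inv was -0.65 and lost its call (adjusted p = 0.922), and that of GOF against Krt14 8w was 4.93 (adjusted p = 0.153).

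Slc15a1 (ENSMUSG00000025557, chromosome 14, 121459621 to 121505252, minus strand), the intestinal carrier PEPT1, was measured at 134 and 179 in Krt14 6w, 199 and 131 in LOF, 248 and 189 in Krt14 8w, 340 and 323 in Inv, and 400 and 611 in GOF. The GOF libraries were the highest and did not overlap those of Krt14 8w (log2 1.19, SE 0.27, adjusted p = 0.00787), a call that ended without Krt14 8w replicate 2 (adjusted p = 0.0766). Slc15a3 and Slc15a4, the lysosomal peptide and histidine carriers, were not called in these comparisons and ranged from 299 to 1177 and from 609 to 838. Of the exon length of Slc15a3, 28.1% lies over Tmem132a, which is transcribed from the opposite strand. Whether the counting used strand is not given in the sources used here. Slc15a5 reached at most 3.

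Promoters are shown for members called and at least 2-fold changed in the same direction in LOF against Krt14 6w and in another comparison that shares no group with it. The windows are RefSeq sequences on GRCm38.p6, from 250 bases before the RefSeq start to 50 bases after it, 5′ to 3′ on the gene's strand. Slc1a5 and Slc7a4 also met the rule. Motifs were searched on both strands, and matches are in capitals: TGATGNAA (the response element of C/EBP and ATF factors), the antioxidant response element, CACGTG (an E-box) and GACCACCCA (GLI). The windows lie at chr16:36784913-36785212, minus strand (Slc15a2), chr15:8710758-8711057, minus strand (Slc1a3), chr2:84840073-84840372, plus strand (Slc43a1), and chr3:50443564-50443863, minus strand (Slc7a11).
Slc15a2: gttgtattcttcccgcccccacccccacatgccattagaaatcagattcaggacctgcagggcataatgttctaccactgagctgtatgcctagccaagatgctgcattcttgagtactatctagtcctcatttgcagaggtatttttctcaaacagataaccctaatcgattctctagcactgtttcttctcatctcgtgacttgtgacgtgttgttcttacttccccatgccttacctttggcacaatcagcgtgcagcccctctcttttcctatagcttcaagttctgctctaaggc
Slc1a3: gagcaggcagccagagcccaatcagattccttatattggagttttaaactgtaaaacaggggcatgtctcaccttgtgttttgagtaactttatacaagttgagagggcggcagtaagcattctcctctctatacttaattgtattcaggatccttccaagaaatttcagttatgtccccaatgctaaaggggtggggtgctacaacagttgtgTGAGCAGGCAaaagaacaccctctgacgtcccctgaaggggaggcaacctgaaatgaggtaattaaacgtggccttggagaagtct
Slc43a1: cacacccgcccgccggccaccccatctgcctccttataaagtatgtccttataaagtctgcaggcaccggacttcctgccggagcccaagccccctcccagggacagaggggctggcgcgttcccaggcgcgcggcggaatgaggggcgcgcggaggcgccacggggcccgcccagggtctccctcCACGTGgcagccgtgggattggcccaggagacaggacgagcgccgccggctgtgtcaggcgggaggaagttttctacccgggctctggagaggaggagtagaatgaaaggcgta
Slc7a11: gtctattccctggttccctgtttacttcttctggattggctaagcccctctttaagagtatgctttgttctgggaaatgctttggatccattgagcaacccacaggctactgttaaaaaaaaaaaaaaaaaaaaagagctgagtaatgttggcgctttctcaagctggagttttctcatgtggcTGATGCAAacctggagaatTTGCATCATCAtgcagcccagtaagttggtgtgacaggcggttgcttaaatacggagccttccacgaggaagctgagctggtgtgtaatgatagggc
The Slc15a2 window holds none of these letters. The Slc1a3 window holds 1 antioxidant response element match at -36 from the start, and the Slc43a1 window 1 E-box at -64, although its RefSeq start lies 1473 bases from the start of the gene in the GENCODE annotation. The Slc7a11 window holds 2 matches to TGATGNAA, the second of which overlaps an antioxidant response element match at -46. Over all 32851 windows of the table, TGATGNAA occurred in 3.97%, the antioxidant response element in 13%, CACGTG in 7.15% and GACCACCCA in 0.253%. Among the 35 members with a window, the counts were 4, 4, 7 and 0. A match is a description of the letters only.

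The Slc1a family holds glutamate carriers and neutral amino acid exchangers. Slc1a3 (ENSMUSG00000005360, chromosome 15, 8634124 to 8710764, minus strand), the glutamate and aspartate carrier EAAT1, was at 27 and 13 in Krt14 6w, 85 and 77 in LOF, 38 and 54 in Krt14 8w, 371 and 380 in Inv, and 272 and 117 in GOF. Inv was the highest group and the Krt14 libraries were the lowest. It rose in LOF (log2 2.05, SE 0.43, adjusted p = 0.00435), was lower in Krt14 8w than in Inv (log2 -3.02, SE 0.43, adjusted p = 0.000647) and higher in GOF than in Krt14 8w (log2 1.95, SE 0.43, adjusted p = 0.00632). The GOF call against Krt14 8w ended without Krt14 8w replicate 1 (adjusted p = 0.0615).

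Slc1a4 and Slc1a5 encode ASCT1 and ASCT2, exchangers of alanine, serine and cysteine, the second of which also carries glutamine. Slc1a4 (ENSMUSG00000020142, chromosome 11, 20302180 to 20332713, minus strand) was at 258 and 205 in Krt14 6w, 865 and 733 in LOF, 287 and 266 in Krt14 8w, 676 and 741 in Inv, and 734 and 354 in GOF. Slc1a5 (ENSMUSG00000001918, chromosome 7, 16781340 to 16798274, plus strand) was at 719 and 747 in Krt14 6w, 290 and 246 in LOF, 516 and 564 in Krt14 8w, 244 and 215 in Inv, and 205 and 102 in GOF. The 2 exchangers ran in opposite directions: the Krt14 libraries of both times were low in Slc1a4 and high in Slc1a5, and every LOF, Inv and GOF library lay above them in Slc1a4 and below them in Slc1a5. In Slc1a4, GOF replicate 2 at 354 was nearer to the Krt14 libraries, the highest of which had 287, than to the next library above it, at 676. Per kilobase, the ratio of Slc1a4 to Slc1a5 was 0.292 to 0.591 in the 4 Krt14 libraries and 2.94 to 3.81 in the 6 others.

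In LOF, Slc1a4 rose (log2 1.79, SE 0.27, adjusted p = 0.000743) and Slc1a5 fell (log2 -1.45, SE 0.27, adjusted p = 0.00211). Krt14 8w had less Slc1a4 than Inv (log2 -1.35, SE 0.27, adjusted p = 0.0057) and more Slc1a5 (log2 1.23, SE 0.27, adjusted p = 0.00804). GOF had more Slc1a4 than Krt14 8w (log2 0.88, SE 0.27, adjusted p = 0.0341) and less Slc1a5 (log2 -1.89, SE 0.27, adjusted p = 0.000497). With a linear Xist covariate the Slc1a5 change in LOF was -0.68 and missed the threshold (adjusted p = 0.0583), and that of Slc1a4 was 2.59. With log2 Xist they were 0.90, opposite in sign, and 4.37. The calls of both genes in Krt14 8w against Inv ended without Krt14 8w replicate 2 or Inv replicate 2 (adjusted p = 0.0544 to 0.0785), and the Slc1a4 call in GOF against Krt14 8w ended without any of 6 libraries (adjusted p = 0.0506 to 0.159), among them GOF replicate 1, without which the change was 0.36, and each Krt14 8w library. Slc1a2, the main glutamate carrier of brain, reached at most 53, Slc1a1 at most 19, and Slc1a6 and Slc1a7 were not tested (at most 7 and 16).

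**Figure D2:**
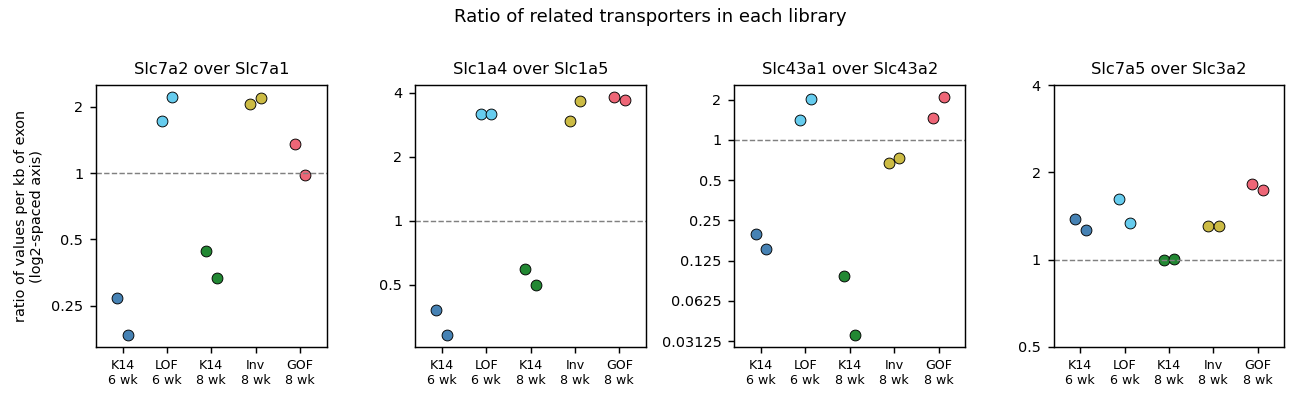
Ratios of 4 pairs of transporters per kilobase of exon, on log axes, with a point per library by group and a dashed line at 1. Slc1a4 over Slc1a5 lies between 0.292 and 0.591 in the Krt14 libraries and between 2.94 and 3.81 in LOF, Inv and GOF, and Slc7a2 over Slc7a1 lies between 0.184 and 0.441 in the Krt14 libraries and between 0.986 and 2.22 in the others.

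Cationic amino acids, chiefly arginine and lysine, enter through Slc7a1 to Slc7a3. Slc7a1 (ENSMUSG00000041313, chromosome 5, 148327410 to 148399904, minus strand), the widely expressed CAT1, was at 5902 and 5121 in Krt14 6w, 3734 and 2458 in LOF, 7149 and 7694 in Krt14 8w, 3493 and 3304 in Inv, and 4129 and 2530 in GOF. Slc7a2 (ENSMUSG00000031596, chromosome 8, 40862396 to 40922308, plus strand), the inducible CAT2, was at 1271 and 747 in Krt14 6w, 5114 and 4316 in LOF, 2499 and 2035 in Krt14 8w, 5686 and 5736 in Inv, and 4434 and 1976 in GOF. In the Krt14 libraries CAT1 exceeded CAT2 per kilobase (ratio of Slc7a2 to Slc7a1 0.184 to 0.441), in LOF and Inv CAT2 exceeded CAT1 (1.73 to 2.22), and the GOF libraries lay at 1.36 and 0.986. Of the exon length of Slc7a2, 6.95% lies over a gene on the other strand.

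Slc7a2 rose in LOF (log2 2.27, SE 0.32, adjusted p = 0.00044), also with a linear (3.15) or log2 Xist covariate (5.01), and was lower in Krt14 8w than in Inv (log2 -1.34, SE 0.32, adjusted p = 0.0138), a call that ended when any library of these groups was left out (adjusted p = 0.0537 to 0.114). Slc7a1 fell in LOF (log2 -0.86, SE 0.22, adjusted p = 0.013), but not without Krt14 6w replicate 1 (adjusted p = 0.0786), without LOF replicate 2 (adjusted p = 0.133) or with a linear Xist covariate (log2 -0.14, adjusted p = 0.525), and with log2 Xist its sign turned (1.01). It was higher in Krt14 8w than in Inv (log2 1.13, SE 0.22, adjusted p = 0.00464; 0.05 to 0.0538 without Krt14 8w replicate 2 or Inv replicate 2). It was lower in GOF than in Krt14 8w (log2 -1.20, SE 0.22, adjusted p = 0.00248), which held with each library left out but turned to 0.44 with log2 Xist.

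Slc7a4 (ENSMUSG00000022756, chromosome 16, 17572018 to 17583214, minus strand), an orphan relative of the cationic carriers, was at 63 and 57 in Krt14 6w, 196 and 149 in LOF, 51 and 59 in Krt14 8w, 78 and 73 in Inv, and 174 and 84 in GOF. LOF and GOF were above the Krt14 libraries without overlap. It rose in LOF (log2 1.50, SE 0.34, adjusted p = 0.007; 0.0605 without LOF replicate 1) and was higher in GOF than in Krt14 8w (log2 1.13, SE 0.34, adjusted p = 0.03). The second call ended without any of 5 libraries, GOF replicate 1 and each library of Krt14 8w and Inv (adjusted p = 0.0504 to 0.168). P2rx6 on the other strand covers 13.3% of its exon length. Slc7a3 ranged from 0 to 23, and Slc7a14 was not tested (at most 13).

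**Figure D3:**
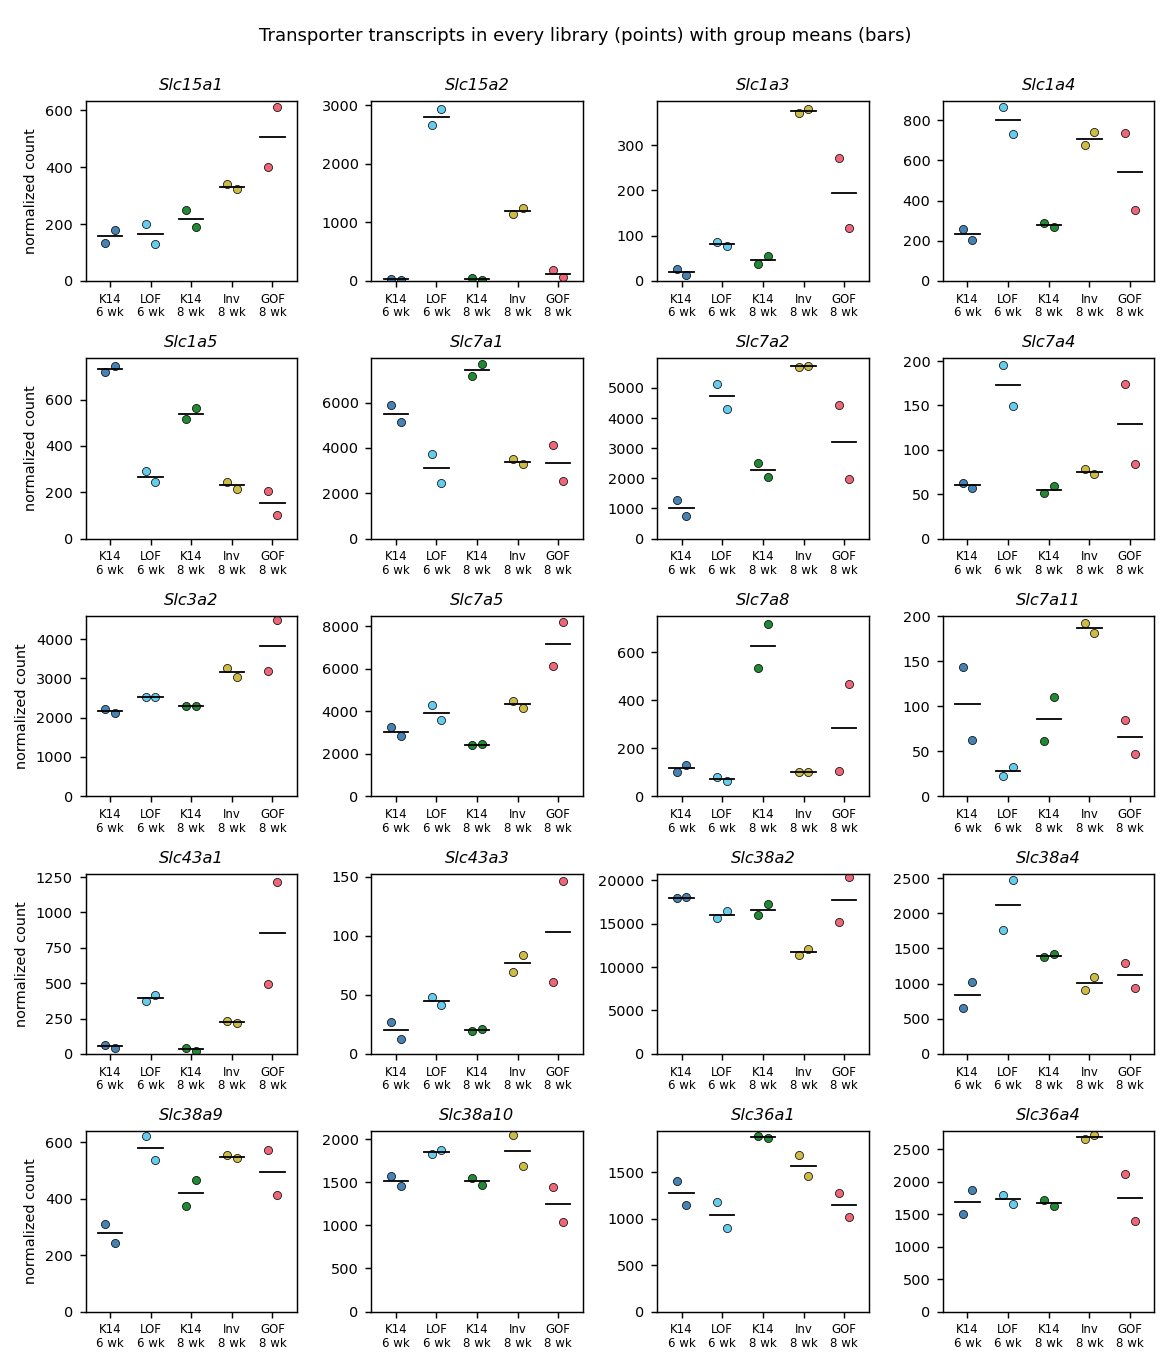
Normalized counts of the 20 named transporters, 1 panel each, with a point per library, a bar at each group mean and axes that start at 0. Slc15a2, Slc1a4 and Slc7a2 are higher in LOF and Inv than in the Krt14 libraries of both times, and Slc1a5 and Slc7a1 are lower there.

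Slc3a2 and Slc7a5 together form the leucine exchanger LAT1-CD98, which brings in leucine and other large neutral amino acids. Slc3a2 (ENSMUSG00000010095, chromosome 19, 8706882 to 8723369, minus strand) was at 2234 and 2118 in Krt14 6w, 2535 and 2526 in LOF, 2309 and 2303 in Krt14 8w, 3272 and 3035 in Inv, and 3184 and 4477 in GOF. Slc7a5 (ENSMUSG00000040010, chromosome 8, 121881150 to 121907694, minus strand) was at 3244 and 2821 in Krt14 6w, 4307 and 3561 in LOF, 2418 and 2433 in Krt14 8w, 4499 and 4171 in Inv, and 6118 and 8192 in GOF. Both GOF libraries exceeded every other library in Slc7a5, and Krt14 8w was the lowest group. The ratio of Slc7a5 to Slc3a2 per kilobase was 0.997 and 1.00 in Krt14 8w, 1.31 in both Inv libraries, and 1.83 and 1.74 in GOF.

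Slc7a5 was higher in GOF than in Inv (log2 0.71, SE 0.14, adjusted p = 0.00813) and than in Krt14 8w (log2 1.54, SE 0.14, adjusted p = 3.94e-05), and lower in Krt14 8w than in Inv (log2 -0.84, SE 0.14, adjusted p = 0.00212). The last 2 held with each library left out. The first ended without either Inv library (adjusted p = 0.0507 and 0.0853) and missed the threshold with a linear Xist covariate (log2 0.59, adjusted p = 0.0529). With log2 Xist the first was 0.01 and the second 0.74, and both calls ended. Slc3a2 was higher in GOF than in Krt14 8w (log2 0.71, SE 0.14, adjusted p = 0.00329). It was lower in Krt14 8w than in Inv (log2 -0.45, SE 0.14, adjusted p = 0.0406), a call that ended without any of 8 libraries, all but those of GOF (adjusted p = 0.0583 to 0.212). In LOF the change of Slc7a5 was 0.37 (adjusted p = 0.0703) and that of Slc3a2 0.22 (adjusted p = 0.26). Slc3a1, the heavy chain of the kidney cystine carrier, ranged from 63 to 105, with 26.5% of its exon length over Prepl on the other strand.

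Of the other light chains, Slc7a8 (ENSMUSG00000022180, chromosome 14, 54722209 to 54781946, minus strand), which encodes LAT2, was at 103 and 130 in Krt14 6w, 82 and 64 in LOF, 535 and 720 in Krt14 8w, 101 and 102 in Inv, and 104 and 468 in GOF. Krt14 8w was the high group, and 1 GOF library, replicate 2, came near it. Slc7a8 was 5.39-fold higher in Krt14 8w than in Krt14 6w (log2 2.41, SE 0.52, adjusted p = 0.0285) and 6.18-fold higher than in Inv (log2 2.60, SE 0.52, adjusted p = 0.00503). The first call ended without any of the libraries of Krt14 6w, Krt14 8w or Inv (adjusted p = 0.0676 to 0.219), and the second without Krt14 8w replicate 2 (adjusted p = 0.0583). The ratio of Slc7a5 to Slc7a8 per kilobase was 4.56 and 6.10 in Krt14 8w and 23.6 to 79.4 in the other libraries.

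Slc7a11 (ENSMUSG00000027737, chromosome 3, 49892526 to 50443614, minus strand) encodes xCT, which imports cystine in exchange for glutamate. It was at 144 and 62 in Krt14 6w, 23 and 32 in LOF, 61 and 110 in Krt14 8w, 192 and 181 in Inv, and 85 and 47 in GOF. LOF was the lowest group and Inv the highest. Slc7a11 fell in LOF (log2 -1.76, SE 0.45, adjusted p = 0.0129) and was lower in GOF than in Inv (log2 -1.54, SE 0.45, adjusted p = 0.0417). The LOF call ended without Krt14 6w replicate 1 (adjusted p = 0.11), LOF replicate 1 (adjusted p = 0.0826) and with a linear Xist covariate (log2 -1.39, adjusted p = 0.159), and the GOF call ended without any of 7 libraries (adjusted p = 0.0529 to 0.211), all but those of Krt14 6w and GOF replicate 1. Slc7a6 and Slc7a7, light chains that exchange cationic for neutral amino acids, ranged from 1171 to 1449 and from 49 to 120 and were not called. Slc7a10 and Slc7a15 ranged from 0 to 21 and from 0 to 17, and Slc7a9, Slc7a12 and Slc7a13 were listed at 0 in every library.

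Of the Slc43a carriers, Slc43a1 and Slc43a2 move large neutral amino acids without sodium. Slc43a1 (ENSMUSG00000027075, chromosome 2, 84838850 to 84863594, plus strand), or LAT3, was at 63 and 42 in Krt14 6w, 375 and 415 in LOF, 44 and 18 in Krt14 8w, 230 and 220 in Inv, and 493 and 1215 in GOF. The Krt14 libraries of both times were the lowest and GOF the highest, with GOF replicate 2 well above replicate 1. It rose 7.52-fold in LOF (log2 2.91, SE 0.45, adjusted p = 0.000723), was 27.6-fold higher in GOF than in Krt14 8w (log2 4.73, SE 0.45, adjusted p = 4.36e-05), and was lower in Krt14 8w than in Inv (log2 -2.95, SE 0.45, adjusted p = 0.00101). GOF exceeded Inv (log2 1.78, SE 0.45, adjusted p = 0.022), but the call ended without either Inv library or without GOF replicate 2 (adjusted p = 0.114 to 0.142), and the value was 1.13 without GOF replicate 2. With a linear Xist covariate the LOF change was 1.98 (adjusted p = 0.0226) and GOF against Inv was 1.12 (adjusted p = 0.193). With log2 Xist the LOF and GOF calls ended: the value was 0.63 in LOF (adjusted p = 0.878), 0.05 in GOF against Inv (adjusted p = 0.994) and 2.73 in GOF against Krt14 8w (adjusted p = 0.417).

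Slc43a3 (ENSMUSG00000027074, chromosome 2, 84936579 to 84958509, plus strand), which lies 73.0 kb from Slc43a1 with 1 coding gene between them and carries purine bases and fatty acids, was at 27 and 13 in Krt14 6w, 48 and 41 in LOF, 19 and 21 in Krt14 8w, 69 and 84 in Inv, and 61 and 146 in GOF. Krt14 8w was below both Inv and GOF without overlap. It was lower in Krt14 8w than in Inv (log2 -1.88, SE 0.48, adjusted p = 0.0182), which ended when any library of these groups was left out (adjusted p = 0.0789 to 0.127), and higher in GOF than in Krt14 8w (log2 2.19, SE 0.48, adjusted p = 0.00628), which ended with a linear Xist covariate (log2 1.66, adjusted p = 0.0609). Slc43a2, or LAT4, ranged from 361 to 1025 and was not called, and the ratio of Slc43a1 to Slc43a2 per kilobase was 0.0349 to 0.198 in the Krt14 libraries, 0.667 and 0.728 in Inv, and 1.41 to 2.08 in LOF and GOF.

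Sodium-coupled Slc38a carriers (SNATs) concentrate glutamine, alanine and other small neutral amino acids. Slc38a2 (ENSMUSG00000022462, chromosome 15, 96687392 to 96699730, minus strand), SNAT2, was at 17928 and 18021 in Krt14 6w, 15699 and 16394 in LOF, 16000 and 17226 in Krt14 8w, 11342 and 12119 in Inv, and 15187 and 20317 in GOF. Inv was below every other library. GOF was above Inv (log2 0.58, SE 0.12, adjusted p = 0.00923) and so was Krt14 8w (log2 0.50, SE 0.12, adjusted p = 0.0141). The first call ended without either Inv library (adjusted p = 0.0587 and 0.0854) and with a linear Xist covariate (log2 0.37, adjusted p = 0.0548), and the second when any library of its groups was left out (adjusted p = 0.0565 to 0.116).

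Slc38a4 (ENSMUSG00000022464, chromosome 15, 96994820 to 97055956, minus strand), the imprinted SNAT4 gene, was at 653 and 1021 in Krt14 6w, 1755 and 2474 in LOF, 1372 and 1426 in Krt14 8w, 913 and 1093 in Inv, and 1287 and 944 in GOF. LOF was above all other libraries, and the rise from Krt14 6w was 2.53-fold (log2 1.35, SE 0.23, adjusted p = 0.00133). Slc38a9 (ENSMUSG00000047789, chromosome 13, 112660751 to 112738749, plus strand), the lysosomal arginine sensor of mTORC1, was at 311 and 243 in Krt14 6w, 620 and 535 in LOF, 373 and 465 in Krt14 8w, 553 and 545 in Inv, and 573 and 414 in GOF. The Krt14 6w libraries were the lowest, and the rise in LOF was 2.08-fold (log2 1.06, SE 0.20, adjusted p = 0.00219). Both rises held with each library left out and with a linear Xist covariate (1.45 and 1.46), and both calls ended with log2 Xist (2.39, adjusted p = 0.127, and 1.80, adjusted p = 0.187).

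Slc38a10 (ENSMUSG00000061306, chromosome 11, 120103960 to 120151346, minus strand) was at 1579 and 1454 in Krt14 6w, 1824 and 1874 in LOF, 1546 and 1474 in Krt14 8w, 2044 and 1692 in Inv, and 1446 and 1040 in GOF. GOF was the lowest group, and it was lower than Inv (log2 -0.60, SE 0.15, adjusted p = 0.0228), a call that ended without either Inv library or GOF replicate 2 (adjusted p = 0.0587 to 0.18) and with a linear Xist covariate (log2 -0.39, adjusted p = 0.175). Slc38a6 and Slc38a7 ranged from 127 to 327 and from 220 to 319 and were not called. Slc38a1, the neuronal glutamine carrier that adjoins Slc38a2, ranged from 5 to 42, Slc38a8 reached 8, and Slc38a3, Slc38a5 and Slc38a11 did not exceed the floor.

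Carriers of the Slc36a family (PATs) export small amino acids from lysosomes or take them up at the surface. Slc36a1 (ENSMUSG00000020261, chromosome 11, 55204350 to 55236330, plus strand) was at 1405 and 1145 in Krt14 6w, 1182 and 902 in LOF, 1891 and 1870 in Krt14 8w, 1682 and 1457 in Inv, and 1275 and 1020 in GOF. Krt14 8w was the highest group, and GOF was below it (log2 -0.72, SE 0.16, adjusted p = 0.00764). That call ended without either Krt14 8w library (adjusted p = 0.0503 and 0.0558) and with a linear Xist covariate (log2 -0.45, adjusted p = 0.0595).

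Slc36a4 (ENSMUSG00000043885, chromosome 9, 15709738 to 15743361, plus strand), a high-affinity carrier of proline and tryptophan, was at 1505 and 1875 in Krt14 6w, 1789 and 1662 in LOF, 1724 and 1622 in Krt14 8w, 2660 and 2710 in Inv, and 2114 and 1391 in GOF. The Inv libraries were above all others. Both Krt14 8w (log2 -0.68, SE 0.17, adjusted p = 0.0184) and GOF (log2 -0.65, SE 0.17, adjusted p = 0.0294) were lower than Inv. The first call ended when any Krt14 8w or Inv library was left out (adjusted p = 0.0779 to 0.121), and the second without any of these or GOF replicate 2 (adjusted p = 0.0551 to 0.16) and with a linear Xist covariate (log2 -0.33, adjusted p = 0.239). Slc36a2 reached 10 and was not tested, and its neighbour Slc36a3 was listed at 0 throughout.

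Survivin loss of function thus went with more PEPT2, EAAT1, ASCT1, CAT2, Slc7a4, LAT3, SNAT4 and SLC38A9 transcript and less ASCT2, CAT1 and xCT transcript, and the 3 lower calls were lost with either Xist covariate. LOF against Krt14 6w called 11 of the 34 tested members, 8 higher and 3 lower (32.4%), against 30.9% of all genes tested, 19.5% higher and 11.4% lower, so the share of members called was near that of all genes. At 2-fold or more the share was higher for members, at 10 of 34, against 3416 of 21995 genes (15.5%). The median log2 change of the members was 0.25 and that of all genes 0.16. Of all calls 63.1% were higher, and 49% after median-of-ratios rescaling; of the members' calls 72.7% were higher, and 66.7% after it. Melanocyte (7 of 8) and sebaceous (5 of 7) markers rose here and the 3 tested genes of the neutrophil list fell. Of 6 fibroblast markers 2 rose, Dcn (log2 3.49) and Col1a2 (3.94), and 2 of 4 tested myeloid markers rose. Of 5 endothelial markers 1, Pecam1 (log2 -1.09), fell, as did 1 of 2 tested T cell markers. Of the keratinocyte markers Krt10 rose (log2 0.94) and Epcam (-0.78) and Trp63 (-0.42) fell. Their part in the result was not tested. Under a linear Xist covariate 13 members were called, 8 of them among the 11. With log2 Xist, Slc15a2, Slc1a4 and Slc7a2 kept their calls, at larger changes (10.35, 4.37 and 5.01). Each was lower in GOF replicate 2, which has more Xist, than in GOF replicate 1, the pair widest in Xist. Keeping a call therefore does not show independence from Xist. Of the 8 calls lost with log2 Xist, those of Slc1a3 (3.93, adjusted p = 0.19), Slc7a4 (3.91, adjusted p = 0.0789), Slc38a4 and Slc38a9 had larger changes than without it. Those of Slc43a1 and Slc7a11 (-1.70, adjusted p = 0.663) had smaller ones, and Slc1a5 and Slc7a1 turned in sign. Apart from Slc7a1, Slc7a4 and Slc7a11, the called members, 8 in all, held without each library in turn. Survivin loss and what moves with Xist cannot be told apart in these libraries.

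With Survivin gain of function the light chain LAT1, LAT3 and SNAT2 transcripts were higher than in Inv and PEPT2, xCT, Slc38a10 and Slc36a4 lower. GOF against Inv called 7 of 34 members, 3 higher and 4 lower (20.6%), against 15.3% of all genes (6.87% higher, 8.4% lower), with a median of -0.12 against -0.01. At 2-fold or more there were 3 of 34 members, against 1397 of 21995 genes (6.35%). Slc15a2 alone kept its call without each library in turn. The count of members was 1 without either Inv library, 4 without GOF replicate 2 and 17 without GOF replicate 1. It was 1 when only these groups were fitted, 3 with a linear Xist covariate, 1 of them among the 7, and 0 with log2 Xist. Of the markers, 7 of 7 sebaceous and 1 of 2 tested T cell ones were lower in GOF. The keratinocyte marker Itgb4 (log2 0.77) and 1 of 3 tested neutrophil-list genes were higher. In the melanocyte, fibroblast, endothelial and myeloid lists 0 were called. The part of these markers in the result was not tested.

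The comparison of drivers, Krt14 8w against Inv, called 13 of 34, 4 higher and 9 lower (38.2%), against 19.6% of all genes (8.18% higher, 11.4% lower), and the median was -0.43 against -0.10. At 2-fold or more there were 9 of 34 members, against 2364 of 21995 genes (10.7%). The higher members were CAT1, ASCT2, LAT2 and SNAT2, and the lower ones were PEPT2, EAAT1, ASCT1, CAT2, LAT1, CD98, LAT3, Slc43a3 and Slc36a4. Xist was low in all 4 libraries, at 51 and 118 in Krt14 8w and 194 and 145 in Inv. A linear Xist covariate is thus nearly equal among them and cannot move this comparison much. That 13 of the 13 calls remained with it is therefore no check. With log2 Xist 12 of the 13 remained, and Slc3a2 missed the threshold (log2 -0.30, adjusted p = 0.0535). The calls of Slc15a2, Slc1a3, Slc43a1 and Slc7a5 held without each library in turn, and the count fell to 4 without Krt14 8w replicate 2, to 5 without Inv replicate 2 and to 8 without the other library of either group. Sebaceous markers were lower in Krt14 8w (6 of 7) and neutrophil-list genes higher (2 of 3 tested). Also lower there were 4 of 8 melanocyte, 2 of 6 fibroblast, 1 of 5 endothelial and 1 of 4 tested myeloid markers. Of 2 tested T cell markers 0 were called. Of the 8 keratinocyte markers 5 were higher in Krt14 8w and 0 lower: Krt1 (log2 1.69), Epcam (1.46), Itgb4 (0.65), Trp63 (0.59) and Itga6 (0.47). The part of these markers was not tested.

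Between the 2 Krt14 times 1 member changed, Slc7a8 (2.94%, against 4.88% of all genes, 4.02% higher and 0.855% lower), with a median of 0.21 against 0.14. It passed 2-fold, as did 3.01% of all genes. Of all calls 82.5% were higher, and 53.7% after median-of-ratios rescaling. The count was 8 without either GOF library and 0 without either Inv library, either Krt14 8w library or Krt14 6w replicate 2. The keratinocyte markers Krt10 (log2 1.98, adjusted p = 0.00465) and Krt1 (1.90, adjusted p = 0.0104), which mark differentiating cells, were higher at 8 weeks and Itga6, a basal integrin, lower (-0.50, adjusted p = 0.011). Of the other lists, 5 of 7 sebaceous and 4 of 8 melanocyte markers were higher at 8 weeks and 0 lower. The part of all these markers was not tested. GOF against Krt14 8w, which differ in driver, Krt14rtTA and Survivin together, called 12 of 34, 9 higher and 3 lower (35.3%), against 27.7% of all genes (15.2% higher, 12.5% lower), with a median of 0.18 against 0.09. At 2-fold or more there were 9 of 34 members, against 2874 of 21995 genes (13.1%). Slc1a5, Slc3a2, Slc43a1, Slc43a3, Slc7a1 and Slc7a5 kept their calls without each library in turn, and 8 members were called without either Krt14 8w library. With a linear Xist covariate 10 of the 12 remained, and with log2 Xist 1, Slc1a4. Epcam (log2 -1.47) and Itga6 (-0.34) were the keratinocyte markers that changed. Of the markers tested in other lists, 3 of 8 melanocyte, 2 of 5 endothelial, 1 of 6 fibroblast and 1 of 4 myeloid ones were higher in GOF. The neutrophil list had 3 of 3 lower and the T cell list 1 of 2, and of 7 sebaceous markers 3 were higher and 2 lower. The part of all these markers was not tested.

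**Figure D4:**
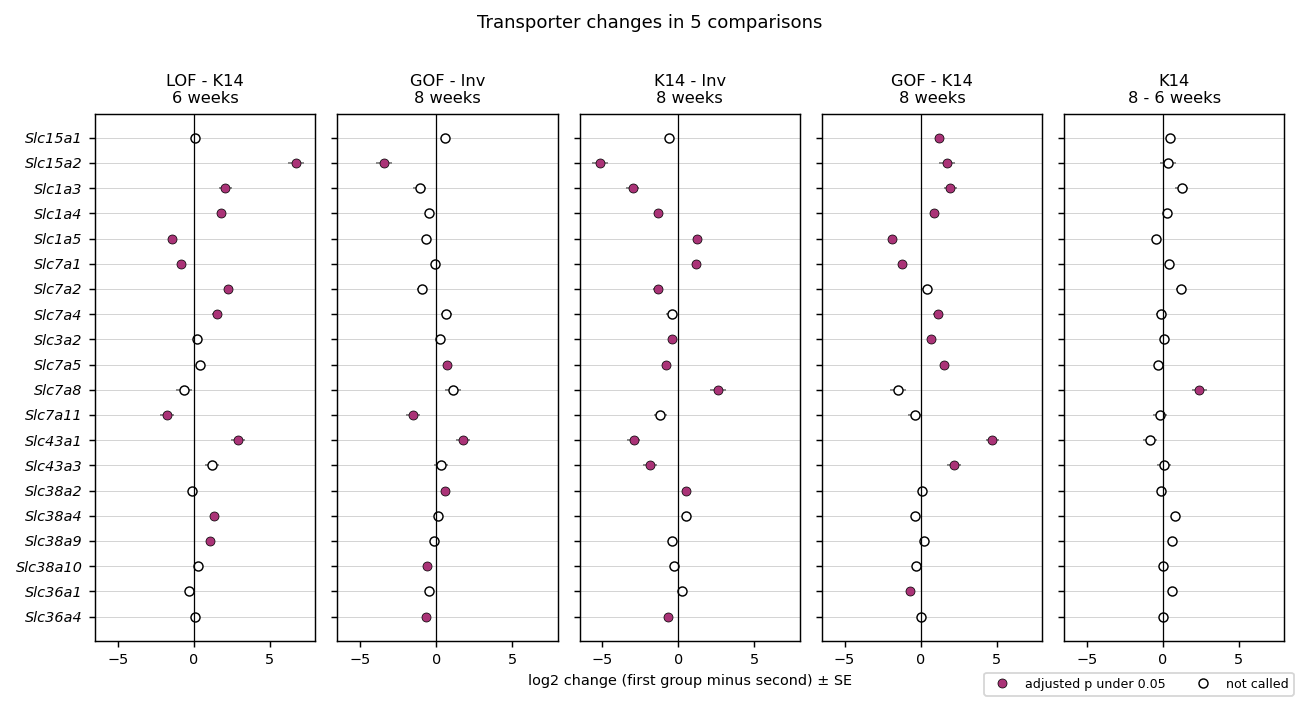
Log2 change ± SE of the 20 named transporters in the 5 comparisons, 1 panel each, filled where the adjusted p is under 0.05. Slc15a2 reaches 6.71 in LOF against Krt14 6w and -5.14 in Krt14 8w against Inv, and Slc43a1 reaches 4.73 in GOF against Krt14 8w.

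LOF against Krt14 6w shares no group with the 8-week comparisons. Of its 11 called members, 7 were also called in Krt14 8w against Inv (63.6% of the first list and 53.8% of the second), and 7 of 7 had the opposite sign: Slc15a2, Slc1a3, Slc1a4, Slc1a5, Slc43a1, Slc7a1 and Slc7a2. These genes thus differed from Krt14 6w to LOF in the direction in which they differed from Krt14 8w to Inv. Over all genes tested, 2901 were called in both, and 2811 of these had the opposite sign, 41.3% of the genes called in LOF and 65.2% of those called in the driver comparison. With GOF against Krt14 8w, 7 members were shared (63.6% and 58.3%), 7 of 7 with the same sign: Slc15a2, Slc1a3, Slc1a4, Slc1a5, Slc43a1, Slc7a1 and Slc7a4. Over all genes, 3176 of 3336 shared calls had the same sign, 46.7% of the genes called in LOF and 52.1% of those called in GOF against Krt14 8w. GOF against Krt14 8w and Krt14 8w against Inv use the same Krt14 8w libraries, so their overlaps with LOF are not independent of each other. With GOF against Inv, 3 members were shared (27.3% and 42.9%): Slc43a1 higher and Slc7a11 lower in both, and Slc15a2 higher in LOF and lower in GOF. Over all genes 1564 were called in both, 797 with the same sign and 767 with the opposite one. The same-sign genes were 11.7% of those called in LOF and 23.7% of those called in GOF against Inv, and the opposite-sign genes 11.3% and 22.8%.

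Genes that act around these carriers were counted from 6 lists, with the share of each list given beside that of all genes: 19.5% higher and 11.4% lower in LOF, 6.87% and 8.4% in GOF against Inv, and 8.18% and 11.4% in Krt14 8w against Inv. These lists hold 12 to 35 genes each, and nothing is particular to a list from its count. In the amino acid response of ATF4, the factor that raises transporter and synthesis genes when amino acids are short, 3 of 35 rose (8.57%) and 15 fell (42.9%) in LOF (median -0.57, all genes 0.16). Vldlr, a lipoprotein receptor, rose from 442 and 669 in Krt14 6w to 3633 and 3987 in LOF (log2 2.80, SE 0.30, adjusted p = 7.43e-05). Cebpb, a transcription factor, fell from 2186 and 2074 to 588 and 571 (log2 -1.88, SE 0.23, adjusted p = 0.000179). In GOF against Inv the counts were 4 higher (11.4%) and 6 lower (17.1%; median -0.24), with the serine synthesis gene Psph at 1212 and 999 against 2505 and 2516 (log2 -1.19, SE 0.13, adjusted p = 0.000264) and Herpud1 at 1078 and 2717 against 619 and 621 (log2 1.46, SE 0.31, adjusted p = 0.0102). In Krt14 8w against Inv 6 were higher (17.1%) and 3 lower (8.57%), Psph at 1271 and 1224 (log2 -1.01, SE 0.13, adjusted p = 0.000399) and Atf3 at 521 and 360 against 162 and 138 in Inv (log2 1.53, SE 0.27, adjusted p = 0.00279).

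Of 31 genes of amino acid sensing upstream of mTORC1, 9 rose (29%) and 2 fell (6.45%) in LOF, 6 rose (19.4%) and 0 fell in GOF against Inv, and 1 was higher (3.23%) and 2 lower (6.45%) in Krt14 8w against Inv. Sesn3, a leucine-sensor relative, rose in LOF from 1524 and 1439 to 2647 and 3234 (log2 0.98, SE 0.14, adjusted p = 0.000372), and Tfe3, a lysosomal transcription factor, fell from 1147 and 1103 to 821 and 749 (log2 -0.52, SE 0.11, adjusted p = 0.00546). In GOF, Sesn1 was at 1787 and 5462 against 863 and 892 in Inv (log2 1.83, SE 0.38, adjusted p = 0.00916) and the Rag GTPase gene Rragc at 2112 and 2423 against 1566 and 1628 (log2 0.50, SE 0.10, adjusted p = 0.0094). Rragd, another Rag GTPase, was at 7 and 8 in Krt14 8w, about the floor, and at 269 and 274 in Inv (adjusted p = 1.74e-05), while Rraga was at 1821 and 1752 against 1352 and 1333 (log2 0.41, SE 0.11, adjusted p = 0.0198).

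For glutathione and cystine use, 3 of 20 rose (15%) and 6 fell (30%) in LOF, 3 (15%) and 5 (25%) in GOF against Inv, and 4 and 4 (20% each) in Krt14 8w against Inv. Cbs, which makes cystathionine, rose in LOF from 201 and 207 to 1438 and 1716 (log2 2.94, SE 0.14, adjusted p = 1.07e-06). Gpx2, a glutathione peroxidase, fell from 789 and 1333 to 28 and 32 (log2 -5.05, SE 0.52, adjusted p = 5.43e-05), and it was at 775 and 743 in Krt14 8w against 30 and 7 in Inv (log2 5.59, SE 0.52, adjusted p = 3.44e-05). Nfe2l2, the factor that binds antioxidant response elements, was at 1609 and 1828 in GOF and 1826 and 2000 in Krt14 8w against 897 and 951 in Inv (log2 0.89 and 1.05, adjusted p = 0.00101 and 0.00017). Gclm, a subunit of glutamate-cysteine ligase, was at 1015 and 825 in GOF against 1534 and 1674 in Inv (log2 -0.81, SE 0.12, adjusted p = 0.00143). Gpx2 and Slc7a11 both fell in LOF, while Cbs rose, but the Slc7a11 call ended with a linear Xist covariate, as given above. In Krt14 8w against Inv, where Gpx2 was higher, the Slc7a11 change was -1.18 and not called (adjusted p = 0.0952).

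Of 21 enzymes of glutamine, arginine and branched-chain amino acid use, 7 rose (33.3%) and 4 fell (19%) in LOF, 3 (14.3%) and 6 (28.6%) in GOF against Inv, and 5 (23.8%) and 8 (38.1%) in Krt14 8w against Inv. Odc1, which makes putrescine from ornithine, fell in LOF from 2107 and 3262 to 531 and 533 (log2 -2.30, SE 0.20, adjusted p = 2.34e-05), and Bcat2, a branched-chain aminotransferase, rose from 418 and 370 to 865 and 862 (log2 1.13, SE 0.13, adjusted p = 0.00013). Oat, ornithine aminotransferase, was at 5497 and 5794 in Inv and lower at 1003 and 1298 in GOF (log2 -2.31, SE 0.16, adjusted p = 1.42e-05) and 1773 and 1719 in Krt14 8w (log2 -1.69, SE 0.16, adjusted p = 4.56e-05). Arg2, a mitochondrial arginase, was at 347 and 463 in GOF against 949 and 929 (log2 -1.23, SE 0.19, adjusted p = 0.0021), and Gpt, an alanine aminotransferase, at 241 and 250 in Krt14 8w against 642 and 495 (log2 -1.20, SE 0.17, adjusted p = 0.000708).

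Among 12 partners of CD98 and genes of transporter trafficking, 2 rose (16.7%) and 4 fell (33.3%) in LOF, and 5 were higher (41.7%) and 1 lower (8.33%) both in GOF and in Krt14 8w against Inv. Sgk1, a kinase known to raise carrier abundance at the membrane, fell in LOF from 7851 and 8884 to 1044 and 1410 (log2 -2.78, SE 0.47, adjusted p = 0.0014) and was at 8063 and 10458 in Krt14 8w against 892 and 901 in Inv (log2 3.36, SE 0.47, adjusted p = 0.000663). The ubiquitin ligase gene Nedd4 rose in LOF from 20163 and 19234 to 31216 and 37251 (log2 0.79, SE 0.10, adjusted p = 0.000272). In GOF, Lgals3, a galectin that binds CD98, was at 2732 and 2938 against 1593 and 1572 in Inv (log2 0.84, SE 0.12, adjusted p = 0.00166), and Sgk3 at 2261 and 2291 against 1261 and 1491 (log2 0.73, SE 0.11, adjusted p = 0.00167). Cd44 was at 30304 and 32090 in Krt14 8w against 14928 and 16709 in Inv (log2 0.98, SE 0.16, adjusted p = 0.00186).

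Of 21 carriers of other families, 6 rose (28.6%) and 4 fell (19%) in LOF, 6 (28.6%) and 2 (9.52%) in GOF against Inv, and 1 and 1 (4.76% each) in Krt14 8w against Inv. Slc6a6, the taurine carrier, rose in LOF from 9088 and 6650 to 23677 and 28846 (log2 1.75, SE 0.21, adjusted p = 0.000173) and was at 33757 and 57337 in GOF against 12728 and 12205 in Inv (log2 1.82, SE 0.21, adjusted p = 0.000395). Slc6a14, a broad neutral and cationic amino acid carrier, fell in LOF from 237 and 215 to 13 and 34 (log2 -3.36, SE 0.39, adjusted p = 0.00013). Slc6a20a, a proline carrier, was at 99 and 102 in GOF and 176 and 184 in Krt14 8w against 30 and 34 in Inv (log2 1.62 and 2.46, adjusted p = 0.0146 and 0.00101), and Slc6a17 at 51 and 39 in Krt14 8w against 94 and 89 (log2 -1.02, SE 0.26, adjusted p = 0.018). The opposite-strand row Slc7a6os, a protein-coding gene beside Slc7a6 and not a transporter, was at 633 and 551 in Krt14 6w, 823 and 722 in LOF, 595 and 643 in Krt14 8w, 845 and 791 in Inv, and 897 and 994 in GOF. It was called in LOF (log2 0.38, SE 0.13, adjusted p = 0.0461) and in GOF against Krt14 8w (log2 0.61, SE 0.13, adjusted p = 0.00592). Slc36a1os and Slc36a3os reached at most 5.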

How the data were processed

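STAR, HTSeq and GRCm38 (mm10) are named in the submitters' processing notes, with no versions or strand setting given in the sources used here. By its name and its values, the deposited table holds normalized counts, a score and not raw counts: 99.3% to 99.9% of values below 20000 in a library are whole multiples of 1 step, rounded up, which puts 7693167 to 8870758 reads behind each library.

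The 21995 genes that reached 10 in 2 libraries or more were fitted as log2(value + 1) in 1 model over the 5 groups with limma 3.58.1 (R 4.3.3), with an intensity trend, 5 residual degrees of freedom and two-sided tests, Benjamini-Hochberg adjusted within each comparison (threshold 0.05). Because of the added 1, the log2 changes understate those of low genes. With 2 libraries against 2, an exact permutation test cannot give p under 0.333. The script was tested on simulated reads with the same spread in every group. In the data the GOF replicates were least alike (correlation of log2 values 0.957, against 0.971 to 0.978 in the other groups). That test therefore does not check the calls made here. Exon lengths came from the GENCODE annotation of GRCm38, which held 49326 of 49671 gene IDs. Each is the merged length of all annotated exons of a gene, not that of the transcript expressed. The order of genes per kilobase and whether a ratio lies above or below 1 depend on this choice.

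Pathway genes named were up to 2 called genes a list with the smallest p and a mean of at least 50. The members, lists and rules were chosen with earlier results of these data known. Alternatives covered pseudocount, filter, scaling, groups fitted, replicate block, limma-voom on recovered reads, log2 Xist, thresholds and each library left out, and a linear Xist covariate was chosen after seeing the data.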

Additional observations from a re-analysis of the deposited data

How the results depend on the processing

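Leaving out 1 library at a time, all genes called ranged from 3772 to 8532 in LOF against Krt14 6w (main 6805), 943 to 6249 in GOF against Inv (3359), 1910 to 6029 in Krt14 8w against Inv (4309), 77 to 2487 in Krt14 8w against Krt14 6w (1073) and 3302 to 7328 in GOF against Krt14 8w (6098), and members called from 11 to 17, 1 to 17, 4 to 16, 0 to 8 and 8 to 14. In the same order of comparisons, log2 Xist gave 941 genes and 6 members, 40 and 0, no move of this size, 1780 and 6, and 202 and 2. Linear Xist gave 1800 genes and 3 members in GOF against Inv and 2012 and 6 in the Krt14 time comparison. Fitting only the groups compared gave 583 genes and 1 member in GOF against Inv, 6501 genes in Krt14 8w against Inv, 2366 genes and 9 members between the Krt14 times, and 3301 genes in GOF against Krt14 8w. Without a filter, members numbered 4 in GOF against Inv, 8 in Krt14 8w against Inv and 0 between the Krt14 times, where 536 genes were called. Between the Krt14 times quantile normalization gave 468 genes and 0 members, voom on recovered reads 701 genes, pseudocount 5 gave 2 members, and the replicate block 3 members. Replicate numbers did not pair the libraries (correlations of replicate differences -0.054 to 0.041), and the replicate block moved no other count by over 1.5 times. At an adjusted p of 0.01, genes numbered 3843, 1339, 2157, 190 and 3316, with 3 members in GOF against Inv, 8 in Krt14 8w against Inv and 0 between the Krt14 times. At 0.05 with at least 2-fold, genes numbered 3416, 1397, 2364, 663 and 2874, with 3 members in GOF against Inv. Among the members called in a comparison, the log2 change turned in sign with log2 Xist: in LOF Slc1a5 (0.90) and Slc7a1 (1.01); in GOF against Inv Slc36a4 (0.68), Slc38a10 (0.14) and Slc38a2 (-0.24); in GOF against Krt14 8w Slc1a5 (0.17), Slc36a1 (0.01), Slc3a2 (-0.35), Slc43a3 (-0.72) and Slc7a1 (0.44). Of the named members not called there, 5 of 9, 10 of 13 and 3 of 8 also turned, among them Slc3a2 (-0.99), Slc7a5 (-0.54) and Slc43a3 (-2.12) in LOF and Slc7a8 (-2.62), Slc1a4 (1.48) and Slc7a2 (1.13) in GOF against Inv. With linear Xist no called member turned, and Slc7a1 in GOF against Inv, not called at -0.07, became 0.44 (adjusted p = 0.0455). With either covariate, the shift of a change is the fitted Xist slope times the Xist difference between the groups. That slope comes only from differences between the 2 libraries of a group, widest in GOF. What sets those differences was not tested. In LOF the median of all genes, 0.16, was 0.02 after median-of-ratios rescaling and -0.01 after quantile normalization, and the share of calls that were higher went from 63.1% to 49% and 50.9%. Only 2 libraries a group and the depth of 7693167 to 8870758 reads limit the low members, and values near the floor depend on the added 1.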
